A study of Mus musculus with 6 samples.

Results

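The genes of the unfolded protein response and of the ATF4 stress response were followed in mouse macrophages given RIP1i. The set held 37 genes, chosen by symbol from the 52459 rows of the count table. All 37 were found, and all 37 were among the 14857 genes with enough reads to be tested. They were sorted by known role into 4 stress sensors, 7 regulators, 4 stress response effectors, 8 enzymes and transporters of the amino acid response, 10 chaperones and folding factors of the endoplasmic reticulum (ER), and 4 genes of ER-associated degradation. The RIP1i group held 3 RNA-seq libraries of bone marrow derived macrophages from C57BL/6 mice, grown in cRPMI with GM-CSF and given RIP1i overnight from day 7 of culture. The DMSO group held 3 libraries of the same strain and culture given DMSO, the solvent, over the same time. The name RIP1i was taken to mean an inhibitor of RIP1, a kinase known for its part in TNF receptor signalling and in cell death. The labels give neither the compound nor its dose, nor the age or sex of the mice. Nothing in them tells if the 3 replicates were separate cultures or animals, and each p-value rests on a spread between libraries that may be technical.

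Unfolded proteins in the ER lumen are sensed by 3 membrane proteins, which are PERK (Eif2ak3), IRE1 (Ern1) and ATF6. IRE1 splices the Xbp1 transcript and ATF6 is released by cleavage, and both then induce chaperones and the degradation machinery. PERK, like the amino acid sensor GCN2 (Eif2ak4), phosphorylates the translation factor eIF2, which lowers overall protein synthesis while favouring translation of ATF4. ATF4 in turn induces genes for amino acid synthesis, amino acid uptake and redox balance. Splicing, cleavage, phosphorylation and translation leave no direct trace in a count of reads per gene, so the values below describe transcript levels alone. Macrophages, as secretory cells with much lysosomal and cytokine traffic, carry an active ER folding machinery.

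Library totals ran from 40729238 to 42378138 counts in RIP1i and from 40264902 to 44862310 counts in DMSO. Macrophage markers were present throughout. The 8 of them summed to 44054 to 53600.1 CPM in RIP1i and 50750.1 to 58655 CPM in DMSO. CPM are counts scaled to the library total after its adjustment by TMM, an edgeR scaling between libraries. Lymphoid and erythroid markers summed to under 1 CPM in every library. Transcripts of stromal cells and neutrophils were also found, and they differed between libraries of the same group. The 12 stromal markers summed to 278, 97.1 and 228 CPM in RIP1i replicates 1 to 3, against 242, 427 and 111 CPM in DMSO replicates 1 to 3. The 8 neutrophil markers summed to 464, 656 and 222 CPM in RIP1i replicates 1 to 3, against 457, 226 and 624 CPM in DMSO replicates 1 to 3. RIP1i replicate 2 had the lowest stromal and the highest neutrophil sum, with DMSO replicate 3 close to it in both. RIP1i replicate 2 was lowest in 11 of the 12 stromal markers and highest in 7 of the 8 neutrophil markers. None of the stromal, neutrophil or macrophage markers was at 0 in any library. The highest stromal sum was that of DMSO replicate 2. In such bulk RNA, fewer cells of a type and less RNA per cell cannot be told apart.

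Promoter stretches of the set that hold a known response element are shown because the ER branch and the ATF4 branch are known to act through different elements. Promoters of RefSeq (GRCm38.p6, the mm10 build) matched 33 of the 37 genes, with 36 promoters in all. Atf6, Manf, Slc7a5 and Hyou1 had no entry. The 250 bases before each start were searched on both strands. The ER stress element, known as a binding site of ATF6 with NF-Y, was searched as CCAAT and CCACG with any 9 bases between them. It was in 6 of the 36 promoters (16.7%), against 37 of all 32851 promoters (0.113%). Among the ER chaperones it was in 5 of 8 promoters (62.5%), and among the amino acid genes in 0 of 8 promoters. The remaining match was in Syvn1. In the next lines, written 5′ to 3′ in the direction of the gene, capitals mark the fixed bases of the element.
Hspa5, chr2:34772005-34772062, plus strand: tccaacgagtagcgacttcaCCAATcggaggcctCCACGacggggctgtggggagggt
Hsp90b1, chr10:86705514-86705676, minus strand: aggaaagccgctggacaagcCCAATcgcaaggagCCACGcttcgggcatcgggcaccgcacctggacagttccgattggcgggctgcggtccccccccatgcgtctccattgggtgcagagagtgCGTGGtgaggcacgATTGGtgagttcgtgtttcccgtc
Pdia6, chr12:17266471-17266528, plus strand: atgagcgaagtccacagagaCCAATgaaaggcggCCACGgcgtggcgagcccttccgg
Dnajc3, chr14:118937807-118937864, plus strand: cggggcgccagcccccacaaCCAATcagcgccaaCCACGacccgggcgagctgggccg
Creld2, chr15:88819500-88819557, plus strand: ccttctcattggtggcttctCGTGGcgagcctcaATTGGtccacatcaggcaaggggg
Syvn1, chr19:6046512-6046569, plus strand: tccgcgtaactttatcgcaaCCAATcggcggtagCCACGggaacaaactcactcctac
Hsp90b1 held the element at 2 places, once on each strand, and Creld2 held it on the opposite strand.

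The amino acid response element, the site type through which ATF4 and its C/EBP partners act, was searched as TGATGNAA and, in its composite form, as TTGCATCA. Every TTGCATCA match is also a TGATGNAA match on the other strand. TGATGNAA was in 5 of the 36 promoters (13.9%), against 1134 of all 32851 (3.45%). TTGCATCA was in 4 of the 36 (11.1%), against 260 of all 32851 (0.791%). Among the 8 amino acid promoters, those of Slc7a11 and Asns held TGATGNAA. Capitals below mark the fixed bases of these elements.
Slc7a11, chr3:50443634-50443699, minus strand: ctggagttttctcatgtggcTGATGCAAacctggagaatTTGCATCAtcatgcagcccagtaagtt
Asns, chr6:7693210-7693252, minus strand: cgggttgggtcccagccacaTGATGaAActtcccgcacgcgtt
Chac1, chr2:119351029-119351075, plus strand: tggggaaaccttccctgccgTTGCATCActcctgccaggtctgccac
Nupr1, chr7:126625554-126625600, minus strand: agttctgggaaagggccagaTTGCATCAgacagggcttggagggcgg
Herpud1, chr8:94386297-94386343, plus strand: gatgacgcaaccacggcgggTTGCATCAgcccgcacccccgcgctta
Slc7a11 held 2 sites in opposite directions, at 66 and 47 bases before its start. Herpud1, an ER-associated degradation gene, carried the ATF4-type site and no match to the searched form of the ER stress element in this window. Other forms of the ER stress element were not searched. A further element of the unfolded protein response, TGACGTGG, was in 0 of the 36 promoters and in 185 of all 32851 (0.563%). A match describes the letters in its window, not a bound site or a cause, and the matches were not tested against the expression values.

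The genes of the set spanned a wide range of levels. FPKM, the count scaled by gene length and by library depth, allows genes to be compared. The most abundant were the ER chaperones Hspa5, which encodes the Hsp70-type chaperone BiP, at 199.8 ± 4.89 FPKM in RIP1i and 194 ± 3.24 FPKM in DMSO (SD, n = 3 each), and Hsp90b1, the Hsp90 of the ER, at 196 ± 1.55 FPKM in RIP1i and 189 ± 6.46 FPKM in DMSO. Their ranges over the 6 libraries overlapped. Pdia4, a protein disulfide isomerase, came next at 190.3 ± 12.2 FPKM in RIP1i and 178 ± 11.8 FPKM in DMSO. The transcripts of the transcription factors Xbp1 and Atf4 followed at 159 and 136 FPKM in RIP1i, against 159 and 125 FPKM in DMSO. At the other end stood genes known to be switched on by stress. Chac1 averaged 1.47 ± 1.04 FPKM in RIP1i and 1.03 ± 0.0666 FPKM in DMSO, Ddit4 2.72 ± 0.274 FPKM in RIP1i and 3.40 ± 1.05 FPKM in DMSO, and Trib3 4.32 ± 1.41 FPKM in RIP1i and 3.66 ± 0.110 FPKM in DMSO. Chac1 was the most thinly counted gene, with 42 to 180 counts per library, while the other 36 genes had at least 100 counts in every library.

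**Figure D1:**
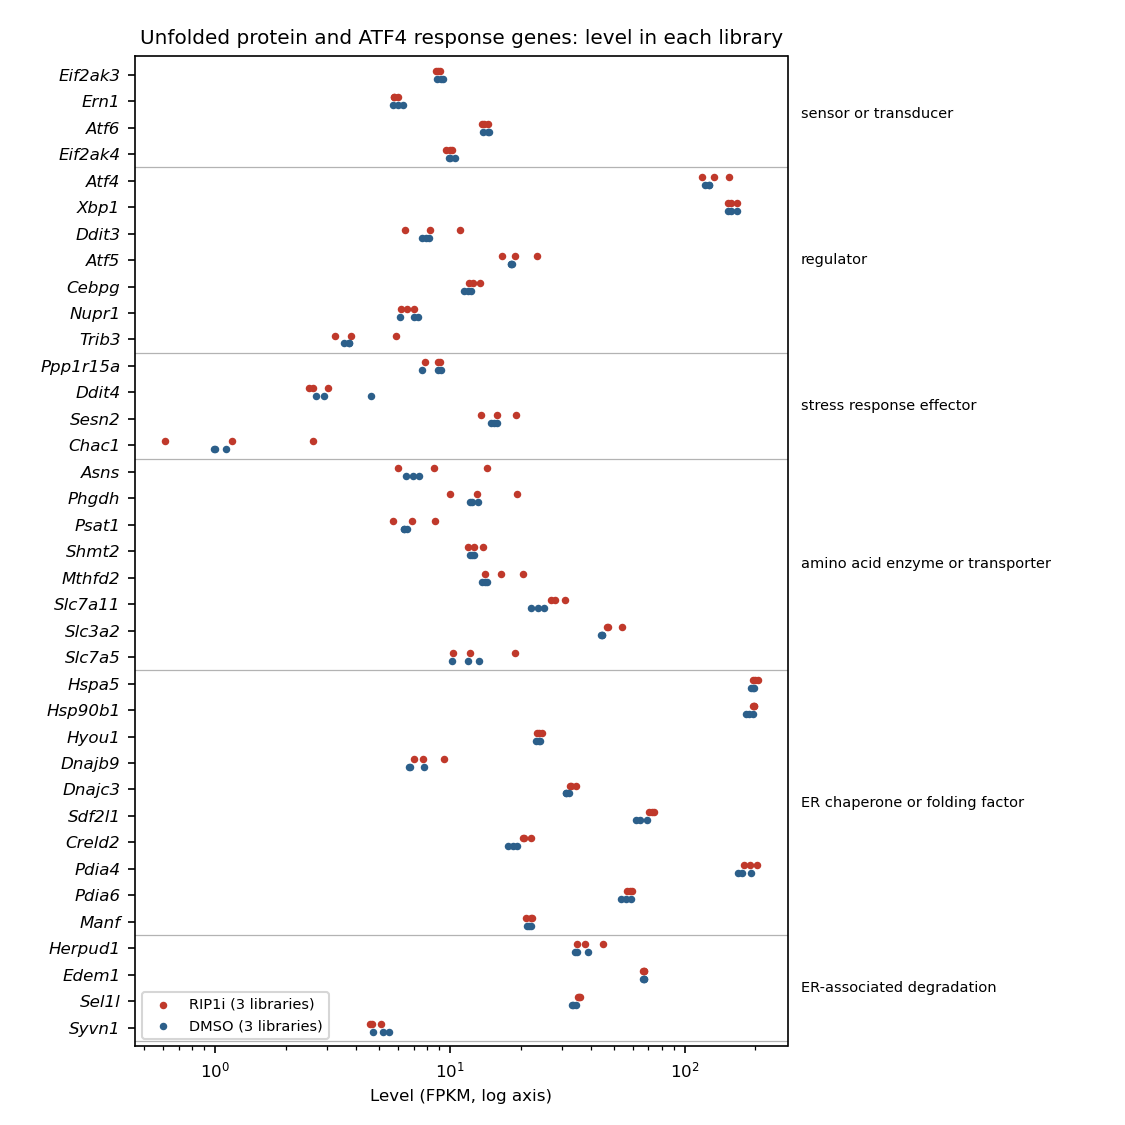
Level of each of the 37 genes (rows, grouped by role) in FPKM on a log axis, with 1 point per library, RIP1i in red above DMSO in blue. The points of Asns, Phgdh, Psat1, Chac1 and Atf5 spread widely in RIP1i and lie closer together in DMSO, while most ER chaperones show tight points in both groups.

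None of the 37 genes was called different between the RIP1i and the DMSO libraries. Called at an adjusted p under 0.05 with edgeR's quasi-likelihood test were 0 of 37 genes, as were 0 of all 14857 genes tested (0%), and the adjusted p of the 37 ran from 0.777 to 0.995. At an unadjusted p under 0.05 there were 6 of 37, all fitted higher in RIP1i, namely Mthfd2, Slc7a11, Slc3a2, Sdf2l1, Creld2 and Sel1l. By that rule 923 of all genes tested (6.21%) were found, 534 (3.59%) higher and 389 (2.62%) lower. DESeq2 gave 0 of the 37 at an adjusted p under 0.05 and 5 at an unadjusted p under 0.05. Fitted higher in RIP1i were 29 of the 37, against 51% of all genes tested, and their median log2 fold change (RIP1i over DMSO) was 0.084, against 0.0025 for all genes tested. Every RIP1i library lay above every DMSO library in 7 genes of the set and below in 0, against 7.36% and 6.18% of all genes tested, 13.5% together. These counts rested on few libraries. Without RIP1i replicate 2, 17 of the 37 were fitted higher, against 47.2% of all genes then tested, and the median was -0.0083. The count at an unadjusted p under 0.05 was 11 without RIP1i replicate 3, where 5.72% of all genes passed. It was 3 without RIP1i replicate 1 (4.61% of all genes), 3 without DMSO replicate 2 (3.81%) and 2 without DMSO replicate 1 (4.01%). It was 4 without RIP1i replicate 2 (6.94%) and 4 without DMSO replicate 3 (6.03%). With fewer libraries to separate, more genes are without overlap. Without RIP1i replicate 3, 15 genes of the set had RIP1i above and 1 below, against 11.4% and 12.2% of all genes. Without DMSO replicate 3 it was 10 above and 4 below, against 12.1% and 13.2%. Without RIP1i replicate 2 it was 7 above and 0 below, against 11.6% and 13.3%. The 95% interval of the fold change lay within 1.5-fold in either direction for 31 of the 37 genes. It did so for 10841 of all 14857 genes tested. Among the 31 were all 14 ER chaperone and degradation genes and 5 of the 8 amino acid genes. For each gene below, leave-one-out gives the lowest and highest log2 fold change when each library in turn was left out.

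**Figure D2:**
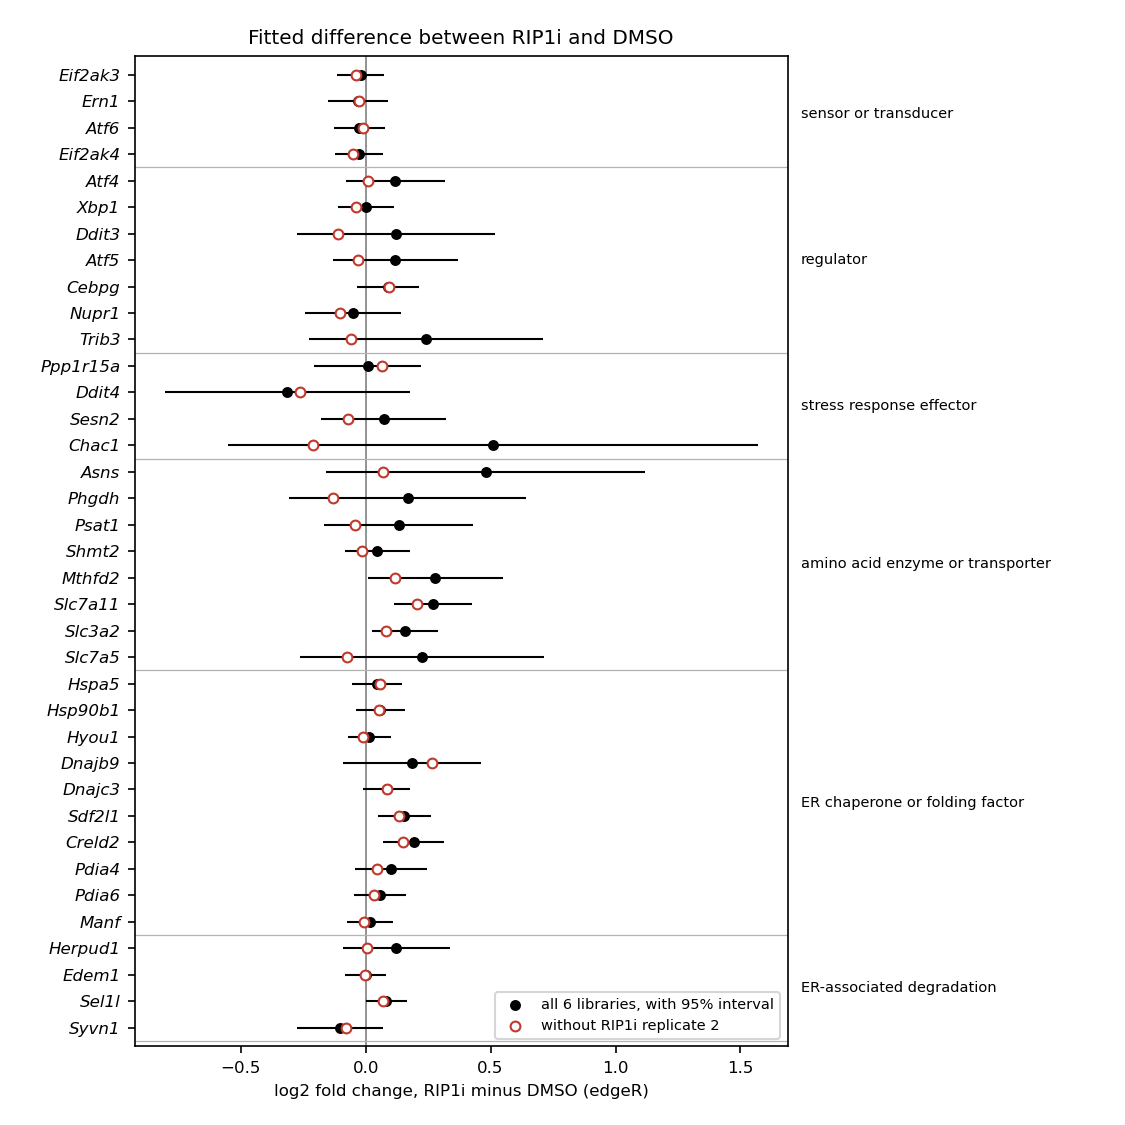
Fitted log2 fold change of RIP1i over DMSO for each gene, as black points with 95% intervals for all 6 libraries, and as open red circles without RIP1i replicate 2. The open circles lie left of the black points for every gene of the amino acid group, from Asns at 0.48 and 0.068 to Shmt2 at 0.047 and -0.015, and close to them for most ER chaperones.

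The stress sensors stood at nearly the same transcript level in both groups. All 4 were fitted slightly lower in RIP1i, with log2 fold changes between -0.031 and -0.019, and the 95% intervals of all 4 lay within 1.5-fold. When single libraries were left out the 4 ranged from -0.074 to 0.0023, and Ern1 without DMSO replicate 2 was the 1 value above 0. Eif2ak3, which encodes PERK, was at 8.73, 9.11 and 8.94 FPKM in RIP1i replicates 1 to 3, against 8.77, 9.30 and 9.14 FPKM in DMSO replicates 1 to 3. Ern1, which encodes IRE1, was at 5.80, 5.79 and 6.00 FPKM in RIP1i replicates 1 to 3, against 5.99, 6.32 and 5.70 FPKM in DMSO replicates 1 to 3. The groups overlapped in both genes, and the highest library of each was DMSO replicate 2. Atf6, the membrane-bound transcription factor, was at 14.5, 13.7 and 14.02 FPKM in RIP1i replicates 1 to 3, against 14.6, 14.6 and 13.9 FPKM in DMSO replicates 1 to 3. Eif2ak4, which encodes GCN2, the kinase that binds uncharged tRNA, ranged from 9.63 to 10.2 FPKM in RIP1i and from 9.95 to 10.6 FPKM in DMSO. RIP1i replicate 2 was the highest library in none of the 4.

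Among the 7 regulators, Atf4, Atf5, Ddit3 and Trib3 were highest in RIP1i replicate 2, and the others were not. Atf4 itself (gene span chr15:80255184-80257545 in RefSeq on GRCm38.p6, as for the spans below) was at 133, 155 and 119 FPKM in RIP1i replicates 1 to 3, against 127, 122 and 127 FPKM in DMSO replicates 1 to 3. RIP1i replicate 2 stood above all other libraries and RIP1i replicate 3 below them, so the DMSO libraries lay between libraries of the other group. The log2 fold change was 0.12 ± 0.084 (SE), 95% interval -0.078 to 0.32, 0.0086 without RIP1i replicate 2, and 0.20 without RIP1i replicate 3. Atf5, a related factor that is also under translational control, was at 19.02, 23.4 and 16.7 FPKM in RIP1i replicates 1 to 3, against 18.3, 18.1 and 18.1 FPKM in DMSO replicates 1 to 3, with the DMSO libraries close together. Ddit3, which encodes the pro-apoptotic factor CHOP, was at 8.20, 11.03 and 6.42 FPKM in RIP1i replicates 1 to 3, against 7.58, 7.91 and 8.13 FPKM in DMSO replicates 1 to 3. Trib3, a pseudokinase that restrains ATF4 and AKT, was at 3.78, 5.92 and 3.25 FPKM in RIP1i replicates 1 to 3, against 3.71, 3.53 and 3.73 FPKM in DMSO replicates 1 to 3. In these 3 genes RIP1i replicate 2 was again the highest and RIP1i replicate 3 the lowest library. Their log2 fold changes were 0.12 ± 0.11 for Atf5, 0.12 ± 0.17 for Ddit3 and 0.24 ± 0.20 for Trib3. Without RIP1i replicate 2 they were -0.031, -0.11 and -0.060, and without RIP1i replicate 3 they were 0.22, 0.28 and 0.40. Exons of Ddit3 overlap those of Mars, a tRNA synthetase gene on the other strand, and exons of Atf5 overlap those of Nup62 and Il4i1. The strand setting of the counting is not given in the sources used here, so these genes may share reads.

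In the other 3 regulators RIP1i replicate 2 was not the highest library, and RIP1i replicate 3 was not the lowest. Within the RIP1i group, Xbp1 and Nupr1 still fell in the order of replicates 2, 1 and 3. Xbp1 (chr11:5520641-5525993) was at 157, 166 and 154 FPKM in RIP1i replicates 1 to 3, against 158, 153 and 167 FPKM in DMSO replicates 1 to 3. Its log2 fold change was 0.0019 ± 0.048, with an interval from -0.11 to 0.11 and leave-one-out values from -0.038 to 0.030, and its sign turned under 8 of the other scalings, filters and tools. Cebpg, a C/EBP partner of ATF4, was at 12.1, 12.5 and 13.4 FPKM in RIP1i replicates 1 to 3, against 12.3, 11.5 and 11.99 FPKM in DMSO replicates 1 to 3, a log2 fold change of 0.089 ± 0.053 (leave-one-out 0.038 to 0.11). Its highest library was RIP1i replicate 3, without which the value was 0.038. Nupr1, a small stress-induced chromatin protein, was at 6.57, 7.01 and 6.17 FPKM in RIP1i replicates 1 to 3, against 7.02, 7.34 and 6.14 FPKM in DMSO replicates 1 to 3, a log2 fold change of -0.051 ± 0.082 (leave-one-out -0.13 to -0.0018). It was -0.0018 without DMSO replicate 2 and -0.13 without DMSO replicate 3. Nupr1 carries the composite element shown above, and its highest library was DMSO replicate 2.

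The stress response effectors were split. Chac1 (chr2:119351242-119354326), which encodes an enzyme that degrades glutathione, was at 1.18, 2.62 and 0.61 FPKM in RIP1i replicates 1 to 3, against 1.11, 0.99 and 1.00 FPKM in DMSO replicates 1 to 3. RIP1i replicate 2 was 2.54 times and RIP1i replicate 3 0.590 times the DMSO mean, the extremes of these ratios in the set, while the DMSO libraries lay close together. The log2 fold change was 0.51 ± 0.45, 95% interval -0.55 to 1.57, -0.21 without RIP1i replicate 2, and 0.87 without RIP1i replicate 3. Sesn2, an inhibitor of mTORC1 that senses leucine, was at 15.9, 19.1 and 13.6 FPKM in RIP1i replicates 1 to 3, against 14.95, 15.4 and 15.9 FPKM in DMSO replicates 1 to 3, with RIP1i replicates 2 and 3 again at the extremes. Its log2 fold change of 0.072 ± 0.11 was -0.071 without RIP1i replicate 2 and 0.18 when RIP1i replicate 3 was left out instead. Ppp1r15a, which encodes the phosphatase subunit GADD34 that reverses eIF2 phosphorylation, was at 8.89, 7.83 and 9.06 FPKM in RIP1i replicates 1 to 3, against 8.93, 9.19 and 7.59 FPKM in DMSO replicates 1 to 3. Ddit4, which encodes the mTORC1 inhibitor REDD1, was at 2.62, 2.51 and 3.03 FPKM in RIP1i replicates 1 to 3, against 2.91, 4.60 and 2.68 FPKM in DMSO replicates 1 to 3. The log2 fold change of Ppp1r15a was 0.0073 ± 0.091 (leave-one-out -0.080 to 0.064). Its sign turned with upper-quartile scaling and without RIP1i replicate 1, RIP1i replicate 3 or DMSO replicate 3. Both genes had their highest value in DMSO replicate 2, and both were below their DMSO mean in RIP1i replicate 2, at 0.914 and 0.739 times that mean. The log2 fold change of Ddit4, -0.31 ± 0.21, was the lowest of the set and was -0.041 without DMSO replicate 2 (leave-one-out -0.47 to -0.041).

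All 8 amino acid genes were fitted higher in RIP1i, against 51% of all genes tested. Their median log2 fold change was 0.20, against 0.0025 for all genes tested. None passed, and all 8 were fitted higher under each of the scalings, filters and tools tried. RIP1i replicate 2 was the highest library in all 8, where it was highest in 23.5% of all genes tested. Without it 4 of the 8 were fitted higher, against 47.2% of all genes then tested, and the median was 0.026. RIP1i replicate 3 was below the DMSO mean in 5 of the 8, and without it the median was 0.32. The unadjusted p was under 0.05 in 3 of the 8 genes (6.21% of all genes tested), and in 6 without RIP1i replicate 3 (5.72%). It was under 0.05 in 2 without RIP1i replicate 1 (4.61%) and in 1 without RIP1i replicate 2 (6.94%). Without any 1 DMSO library it was so in 1 of the 8, against 3.81% to 6.03% of all genes then tested.

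Asns (chr6:7675165-7693209), which encodes asparagine synthetase and is a classical ATF4 target, was at 8.59, 14.4 and 6.00 FPKM in RIP1i replicates 1 to 3, against 6.93, 6.52 and 7.37 FPKM in DMSO replicates 1 to 3. RIP1i replicate 2 had 2.08 times the DMSO mean, RIP1i replicate 1 1.24 times and RIP1i replicate 3 0.865 times. Its log2 fold change of 0.48 ± 0.27 (interval -0.16 to 1.12) was 0.068 without RIP1i replicate 2 and 0.72 when RIP1i replicate 3 was left out instead. Phgdh and Psat1 encode the first 2 enzymes of serine synthesis. Phgdh was at 13.1, 19.3 and 10.01 FPKM in RIP1i replicates 1 to 3, against 12.4, 12.2 and 13.2 FPKM in DMSO replicates 1 to 3. Psat1 was at 6.88, 8.61 and 5.70 FPKM in RIP1i replicates 1 to 3, against 6.40, 6.38 and 6.58 FPKM in DMSO replicates 1 to 3. In both genes the DMSO libraries lay within the range spanned by the RIP1i libraries. Their log2 fold changes were 0.17 ± 0.20 for Phgdh and 0.13 ± 0.13 for Psat1, -0.13 and -0.041 without RIP1i replicate 2, and 0.36 and 0.26 without RIP1i replicate 3. Slc7a5, which encodes the leucine transporter LAT1, was at 12.2, 18.9 and 10.3 FPKM in RIP1i replicates 1 to 3, against 11.9, 10.2 and 13.4 FPKM in DMSO replicates 1 to 3. RIP1i replicate 2 was the highest library and DMSO replicate 2 the lowest. Its log2 fold change of 0.22 ± 0.21 was -0.074 without RIP1i replicate 2 and 0.39 when RIP1i replicate 3 was left out instead.

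Shmt2 and Mthfd2 encode mitochondrial enzymes that pass serine carbon into the folate cycle. Shmt2 was at 12.7, 13.8 and 11.9 FPKM in RIP1i replicates 1 to 3, against 12.2, 12.7 and 12.4 FPKM in DMSO replicates 1 to 3, a log2 fold change of 0.047 ± 0.055 (leave-one-out -0.015 to 0.087, the lowest without RIP1i replicate 2). Mthfd2 was at 16.5, 20.5 and 14.2 FPKM in RIP1i replicates 1 to 3, against 13.7, 14.1 and 14.4 FPKM in DMSO replicates 1 to 3. In Mthfd2 only RIP1i replicate 3 reached into the DMSO range. With all libraries its log2 fold change was 0.28 ± 0.12 (interval 0.0079 to 0.55) and without RIP1i replicate 2 it was 0.12 (leave-one-out 0.12 to 0.39). The edgeR adjusted p of Mthfd2 was 0.777.

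All 3 RIP1i libraries stood above all 3 DMSO libraries in 2 of the 8 amino acid genes, against 7.36% of all genes tested. These were the 2 genes of the cystine transporter. Slc7a11 (chr3:50364936-50499087), which encodes the cystine-glutamate exchanger xCT, was at 26.8, 30.8 and 27.9 FPKM in RIP1i replicates 1 to 3, against 25.2, 22.1 and 23.8 FPKM in DMSO replicates 1 to 3. The log2 fold change, 0.27 ± 0.067, had an interval from 0.11 to 0.42 and an edgeR adjusted p of 0.777. It ranged from 0.20 to 0.31 when single libraries were left out, and its smallest adjusted p under any alternative was 0.203. Slc3a2, which encodes the heavy chain CD98 shared by xCT and LAT1, was at 47.1, 53.9 and 46.5 FPKM in RIP1i replicates 1 to 3, against 44.2, 44.3 and 43.9 FPKM in DMSO replicates 1 to 3. Its DMSO libraries lay within 1 FPKM of each other, and its log2 fold change of 0.16 ± 0.057 was 0.080 without RIP1i replicate 2 (leave-one-out 0.080 to 0.19). Slc7a5, the other light chain that pairs with Slc3a2, overlapped between the groups as given above.

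The 10 ER chaperones and folding factors showed smaller differences that were spread more evenly over the RIP1i libraries. All 10 were fitted higher in RIP1i, against 51% of all genes tested, with log2 fold changes from 0.014 to 0.19 and a median of 0.071. They were also all fitted higher under each of the scalings, filters and tools tried. None passed. At an unadjusted p under 0.05 there were 2 (6.21% of all genes tested), and 1 without RIP1i replicate 1 (4.61%) or DMSO replicate 1 (4.01%). There were 3 without RIP1i replicate 2 (6.94%). Without RIP1i replicate 2, 8 of the 10 were fitted higher, against 47.2% of all genes then tested, and the median was 0.053. Without DMSO replicate 1, 8 were fitted higher, against 46.1%, and the median was 0.047. In 4 of the 10 every RIP1i library was above every DMSO library on the CPM scale, where 7.36% of all genes tested were so separated.

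Creld2 (chr15:88819646-88826681), an ER-stress-induced disulfide isomerase-like protein, was at 20.5, 22.2 and 20.8 FPKM in RIP1i replicates 1 to 3, against 17.7, 18.6 and 19.4 FPKM in DMSO replicates 1 to 3. Its log2 fold change of 0.19 ± 0.052 had an interval from 0.070 to 0.31, an edgeR adjusted p of 0.777, and a range of 0.15 to 0.22 when single libraries were left out. Sdf2l1, a cofactor of BiP, was at 72.7, 73.9 and 70.4 FPKM in RIP1i replicates 1 to 3, against 61.9, 64.6 and 68.8 FPKM in DMSO replicates 1 to 3. The groups did not overlap in either gene. The log2 fold change of Sdf2l1 was 0.16 ± 0.046, with a range of 0.11 to 0.19. Dnajc3, a J-domain cochaperone also known as p58IPK, was at 32.4, 32.9 and 34.4 FPKM in RIP1i replicates 1 to 3, against 31.1, 31.2 and 32.03 FPKM in DMSO replicates 1 to 3, a log2 fold change of 0.084 ± 0.040 (leave-one-out 0.050 to 0.094). It too was without overlap, and the lowest of these values was that without RIP1i replicate 3. Hsp90b1 was at 198, 196 and 195 FPKM in RIP1i replicates 1 to 3, against 183, 188 and 196 FPKM in DMSO replicates 1 to 3. In Hsp90b1 the groups were separated in CPM and overlapped in FPKM, whose library scaling differs slightly, and the log2 fold change was 0.058 ± 0.042 (leave-one-out 0.027 to 0.078, the lowest without DMSO replicate 1).

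The groups overlapped in the other 6 chaperone genes. Hspa5 was at 205, 195 and 199.9 FPKM in RIP1i replicates 1 to 3, against 191, 197 and 196 FPKM in DMSO replicates 1 to 3, and its log2 fold change was 0.044 ± 0.043 (interval -0.055 to 0.14, leave-one-out 0.018 to 0.055). Pdia4 was at 189.9, 203 and 178 FPKM in RIP1i replicates 1 to 3, against 175, 168 and 191 FPKM in DMSO replicates 1 to 3, a log2 fold change of 0.10 ± 0.063 that was 0.047 without RIP1i replicate 2 (leave-one-out 0.047 to 0.15). Pdia6, another disulfide isomerase, had a log2 fold change of 0.057 ± 0.044 (leave-one-out 0.014 to 0.085), Hyou1, an Hsp70-like nucleotide exchange factor, had 0.014 ± 0.037 (leave-one-out -0.015 to 0.022), and Manf, a secreted ER-stress protein, had 0.016 ± 0.039 (leave-one-out -0.0085 to 0.037). Over the libraries Pdia6 ranged from 56.5 to 59.8 FPKM in RIP1i and from 53.4 to 58.7 FPKM in DMSO. Hyou1 ranged from 23.4 to 24.7 FPKM in RIP1i and from 23.2 to 24.2 FPKM in DMSO. Manf ranged from 21.00 to 22.5 FPKM in RIP1i and from 21.2 to 22.1 FPKM in DMSO. The sign of both Hyou1 and Manf turned without RIP1i replicate 2 or DMSO replicate 1, and that of Manf also without RIP1i replicate 1. Exons of Manf overlap those of Rbm15b and Dcaf1, so its reads may be shared. Dnajb9, the J-domain cochaperone ERdj4 that is a known XBP1 target, was at 7.71, 7.03 and 9.39 FPKM in RIP1i replicates 1 to 3, against 7.79, 6.79 and 6.69 FPKM in DMSO replicates 1 to 3. Its highest library was RIP1i replicate 3, and its log2 fold change of 0.19 ± 0.12 was 0.050 without that library (leave-one-out 0.050 to 0.27).

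Of the 4 genes of ER-associated degradation, Sel1l and Herpud1 were fitted higher, and Syvn1 and Edem1 lower. Sel1l, the adaptor of the HRD1 ubiquitin ligase, was at 35.5, 35.8 and 35.3 FPKM in RIP1i replicates 1 to 3, against 33.2, 33.3 and 34.4 FPKM in DMSO replicates 1 to 3. Its groups did not overlap, and its log2 fold change was 0.082 ± 0.035 (leave-one-out 0.064 to 0.091) with an interval from 0.00085 to 0.16 and an edgeR adjusted p of 0.777. Syvn1, which encodes HRD1 itself, was at 5.07, 4.57 and 4.68 FPKM in RIP1i replicates 1 to 3, against 5.52, 5.17 and 4.72 FPKM in DMSO replicates 1 to 3, a log2 fold change of -0.10 ± 0.073 (leave-one-out -0.17 to -0.057). Exons of Syvn1 overlap those of Mrpl49, so its reads may be shared. Edem1, a lectin that delivers misfolded glycoproteins, had the smallest spread of the set over all 6 libraries, at 67.1, 66.4 and 66.8 FPKM in RIP1i replicates 1 to 3, against 67.1, 66.5 and 67.3 FPKM in DMSO replicates 1 to 3. Herpud1, a membrane protein of the degradation complex, was at 37.5, 44.8 and 34.9 FPKM in RIP1i replicates 1 to 3, against 34.1, 34.7 and 38.9 FPKM in DMSO replicates 1 to 3. Its highest library was RIP1i replicate 2, at 1.247 times the DMSO mean, and its log2 fold change of 0.12 ± 0.092 was 0.0067 without that library and 0.19 without RIP1i replicate 3.

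**Figure D3:**
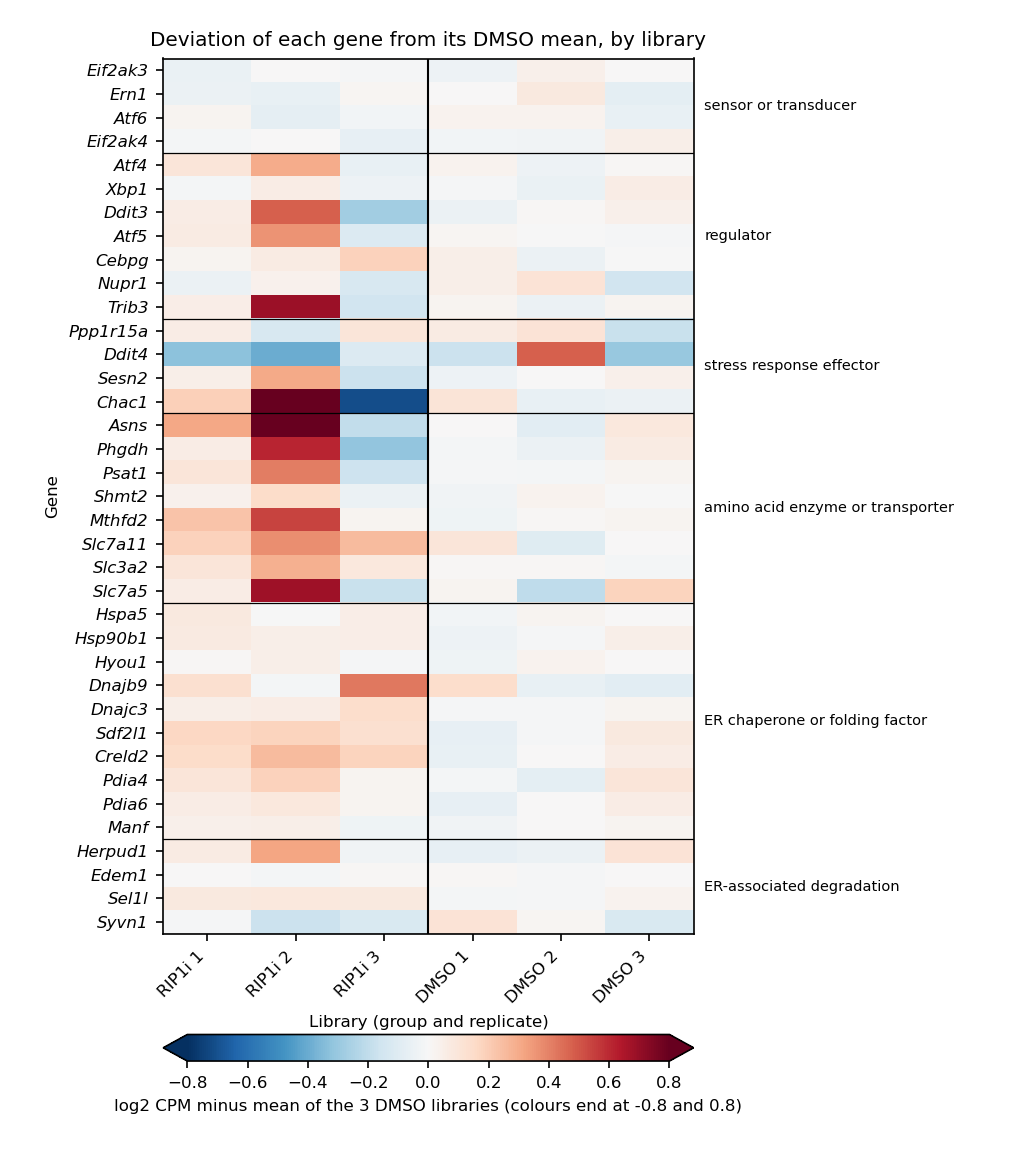
Deviation of log2 CPM from the mean of the 3 DMSO libraries for each gene (rows, grouped by role) in each library (columns, RIP1i left of DMSO), red for higher and blue for lower. The column of RIP1i replicate 2 is red from Asns to Slc7a5 and in Atf4, Ddit3, Atf5, Trib3, Sesn2, Chac1 and Herpud1. Slc7a11, Slc3a2, Sdf2l1 and Creld2 are among the genes above the DMSO mean in all 3 RIP1i columns.

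The mean levels of the amino acid genes spread more widely over the RIP1i libraries than those of the ER chaperones. Gene by gene, RIP1i replicate 2 was often the highest library in both. A list was summed up per library by centring the log2 CPM of each gene on its mean over the 6 libraries and averaging these values. This level for the 8 amino acid genes was 0.037, 0.41 and -0.16 in RIP1i replicates 1 to 3, against -0.090, -0.15 and -0.052 in DMSO replicates 1 to 3. RIP1i replicate 2 was the highest library and RIP1i replicate 3 the lowest, so the DMSO libraries lay inside the RIP1i range. For the 10 ER chaperones it was 0.039, 0.044 and 0.052 in RIP1i replicates 1 to 3, against -0.065, -0.055 and -0.014 in DMSO replicates 1 to 3. Here the 3 RIP1i libraries lay close together and above all DMSO libraries, with SDs of 0.0069 in RIP1i and 0.027 in DMSO. The same SDs for the amino acid genes were 0.29 in RIP1i and 0.047 in DMSO. The order and the closeness of the 3 chaperone levels in RIP1i rested on Dnajb9. Its log2 CPM deviated from its DMSO mean by 0.13, -0.015 and 0.42 in RIP1i replicates 1 to 3. RIP1i replicate 2 was the highest library in 8 of 8 amino acid genes, in 6 of 10 ER chaperones and in 8 of 14 ER chaperone and degradation genes, against 23.5% of all genes tested. Across the whole set it was the highest library in 22 of 37 genes (59.5%), and RIP1i replicate 3 the lowest in 12 of 37, against 17.9%.

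The spread between replicates also differed between the lists. In all 8 amino acid genes the SD of log2 CPM was larger among RIP1i than among DMSO libraries, with a median SD of 0.274 in RIP1i and 0.0434 in DMSO. Among all genes tested it was larger in RIP1i for 57.3%, with median SDs of 0.106 in RIP1i and 0.0884 in DMSO. Of the 10 ER chaperones it was larger in RIP1i for 4, with median SDs of 0.042 in RIP1i and 0.0519 in DMSO. Without RIP1i replicate 2 it was larger in RIP1i for 6 of the 8 amino acid genes, with median SDs of 0.167 in RIP1i and 0.0473 in DMSO, and for 4 of the 10 ER chaperones. It was then larger in RIP1i for 39.0% of all genes. The SDs of the amino acid genes share the same libraries, so they are not separate observations.

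Ranked by the ratio of RIP1i replicate 2 to the DMSO mean, the first 8 genes were Chac1 at 2.54, Asns at 2.08, Trib3 at 1.62, Slc7a5 at 1.60, Phgdh at 1.53, Mthfd2 at 1.46, Ddit3 at 1.401 and Psat1 at 1.33. None of these is an ER chaperone gene, whose highest ratio was 1.20 in Creld2. In RIP1i replicate 3 the ratios of those 8 genes ran from 0.590 in Chac1 to 1.007 in Mthfd2.

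RIP1i replicate 2 was also an extreme library in the sums of cell type markers. It had the lowest stromal and the highest neutrophil sum, as given above, and its macrophage sum of 44054 CPM was the lowest. Lyz2 alone made 39846 CPM of that sum, and of the 8 macrophage markers 4 were lowest in that library and 1, Adgre1, was highest. DMSO replicate 3 had nearly the same stromal sum (111 CPM) and neutrophil sum (624 CPM), while its amino acid gene level was -0.052, against 0.41 in RIP1i replicate 2. RIP1i replicate 3 and DMSO replicate 2 shared the lowest neutrophil sums and the lowest amino acid gene levels, at -0.16 and -0.15. Mitochondrially encoded transcripts, taken as a sign of RNA quality, summed to 4155 CPM in RIP1i replicate 2 and to 4131 CPM in DMSO replicate 2, the lowest values of their groups. The part of these differences in the values of the amino acid genes was not tested. Without both RIP1i replicate 2 and DMSO replicate 2 the median log2 fold change was 0.011 for the amino acid genes and 0.054 for the ER chaperones.

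**Figure D4:**
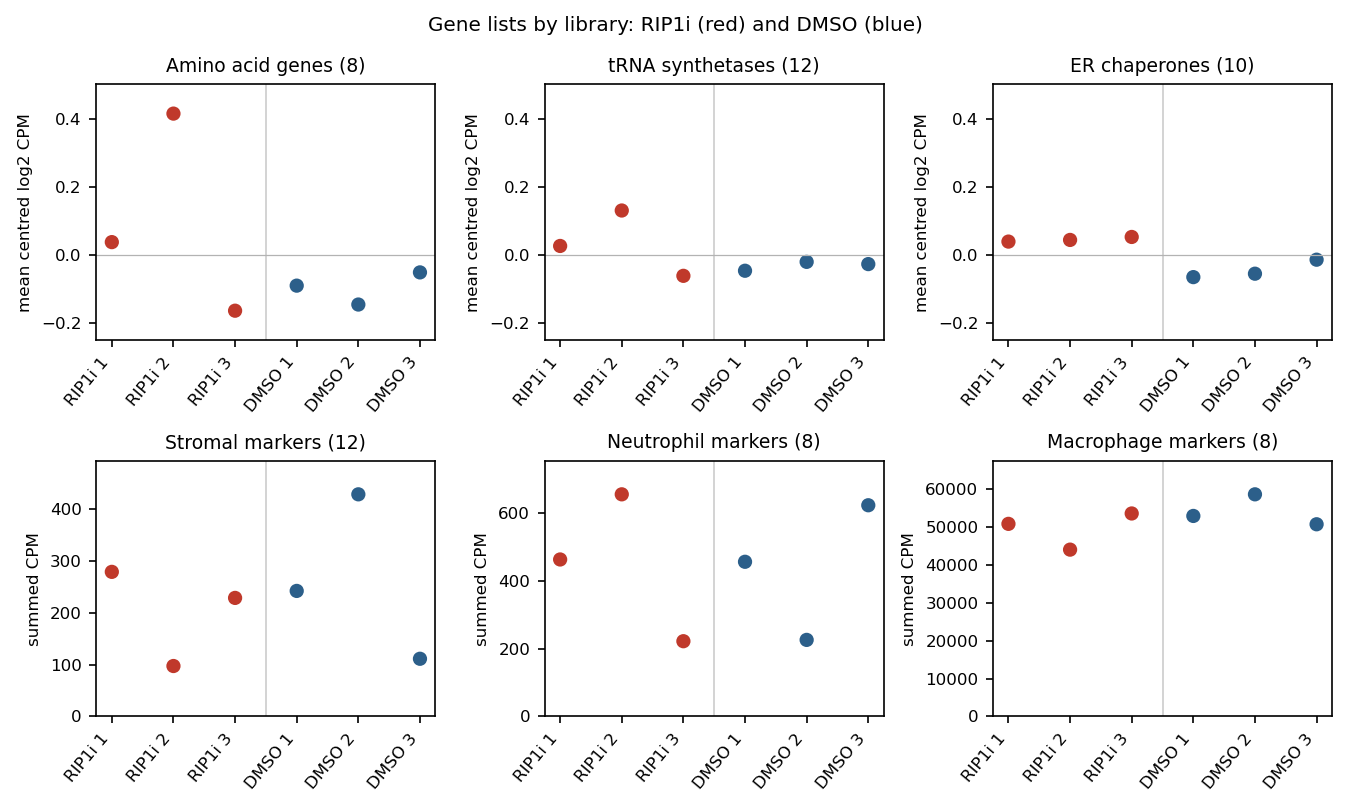
Level of 3 gene lists (upper row, mean of centred log2 CPM) and summed CPM of 3 marker lists (lower row) in each library, RIP1i in red left of DMSO in blue. Amino acid genes and tRNA synthetases are highest in RIP1i replicate 2, ER chaperones are even across the 3 RIP1i libraries, and DMSO replicate 3 lies near RIP1i replicate 2 in stromal and neutrophil markers.

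Other genes of the same pathways were read from 5 further lists, and none of their genes passed. A list of 12 cytosolic tRNA synthetases, not the whole family, was read. These enzymes charge tRNAs with amino acids, and their genes include known ATF4 targets. All 12 were fitted higher, against 51% of all genes tested, and 10 of the 12 were highest in RIP1i replicate 2. Without that library, 8 of the 12 were fitted higher, against 47.2% of all genes then tested, and their median log2 fold change was 0.0074, against 0.066 with it. Their level was 0.026, 0.13 and -0.062 in RIP1i replicates 1 to 3, against -0.047, -0.021 and -0.027 in DMSO replicates 1 to 3. The 3 with the smallest p were, by log2 fold change and SE, Tars at 0.091 ± 0.050, Nars at 0.078 ± 0.045 and Cars at 0.12 ± 0.072. Tars was at 32.6, 34.3 and 29.97 FPKM in RIP1i replicates 1 to 3, against 30.5, 30.1 and 30.5 FPKM in DMSO replicates 1 to 3, with RIP1i replicate 2 the highest and RIP1i replicate 3 the lowest library. Of 21 further tested ATF4 targets, 16 were fitted higher and 5 lower, 1 of them with an unadjusted p under 0.05 and 10 highest in RIP1i replicate 2. Without that library 11 of the 21 were fitted higher, and their median was 0.025, against 0.084 with it. The gene with the unadjusted p under 0.05 was Cth, which encodes the enzyme that makes cysteine from cystathionine, at 0.15, 0.17 and 0.15 FPKM in RIP1i replicates 1 to 3, against 0.10, 0.05 and 0.08 FPKM in DMSO replicates 1 to 3, a log2 fold change of 1.01 ± 0.29 at a very low level. Gpt2, a mitochondrial alanine transaminase, had 0.15 ± 0.080, and Slc1a5, a glutamine transporter, 0.057 ± 0.035.

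Of 30 further genes of ER folding and protein entry, 27 were fitted higher and 3 lower, where 51% of all genes tested were fitted higher. Their median log2 fold change was 0.063. When single libraries were left out, 20 to 28 of the 30 were fitted higher, against 46.1% to 51% of all genes then tested. The fewest were without RIP1i replicate 3, and 25 were fitted higher without RIP1i replicate 2. In 8 of the 30 every RIP1i library was above every DMSO library, against 7.36% of all genes tested, and 6 of the 30 were highest in RIP1i replicate 2, against 23.5%. Ssr1, a subunit of the translocon-associated complex, was at 23.5, 23.4 and 24.5 FPKM in RIP1i replicates 1 to 3, against 21.6, 21.01 and 22.1 FPKM in DMSO replicates 1 to 3, a log2 fold change of 0.14 ± 0.041. Hspa13, an Hsp70-type protein of the microsomes, had 0.17 ± 0.067, and Spcs3, a signal peptidase subunit, 0.16 ± 0.069. Of 14 further tested genes of ER-associated degradation, 12 were fitted higher, against 51% of all genes tested. When single libraries were left out, 9 to 12 were fitted higher, against 46.1% to 51%. Separated upwards were 5 of the 14 and downwards 1, against 7.36% and 6.18% of all genes tested. Ube2j1, a ubiquitin-conjugating enzyme of the ER, had 0.12 ± 0.043, Rnf139, an ER ubiquitin ligase, 0.11 ± 0.057, and Ufd1, a cofactor of the VCP segregase, -0.11 ± 0.038. Of 13 genes around eIF2 and ATF6 processing, 8 were fitted higher and 5 lower, and none had an unadjusted p under 0.05. Without RIP1i replicate 2, 4 of these 13 were fitted higher, against 47.2% of all genes then tested. There were 5 without DMSO replicate 1, against 46.1%. Eif2s1, the phosphorylated subunit of eIF2, had 0.074 ± 0.046, Ppp1r15b, the constitutive eIF2 phosphatase subunit, 0.056 ± 0.046, and Mbtps2, a protease that releases ATF6, 0.071 ± 0.071.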

How the data were processed

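RNA was sequenced in 3 RIP1i and 3 DMSO libraries, grouped by their titles. The authors deposited raw read counts and FPKM values, a table of each. The submitters' processing notes name the build mm10 and, with no role or order, STAR 2.5.3a, CASAVA 1.8.4, DESeq2 1.14.0, Subread 1.4.6-p3 and featureCounts. Annotation, strand setting and the handling of multi-mapping reads were not given in the sources used here. The deposited FPKM followed the counts divided by a median-of-ratios size factor, within 2.08e-04% over 7818 well-covered genes.

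Genes were filtered with filterByExpr (minimum count 10, minimum total 15), scaled by TMM and tested with edgeR 4.0.16 in R 4.3.3 (quasi-likelihood F test, 2-sided, treatment as the only term, Benjamini-Hochberg adjustment over all 14857 genes tested, threshold 0.05). SEs come from the F statistic, and 95% intervals use the t quantile at the total degrees of freedom. Log2 CPM used a prior count of 2. Fits were tested on simulated data. Alternatives used DESeq2 1.42.0, limma 3.58.1 (voom, and trend on log2 FPKM), other scalings and filters, a replicate block and fewer libraries. Named are all 37 genes and up to 3 genes with the smallest p of each further list. Promoter stretches of Creld2, Asns, Nupr1, Syvn1 and Chac1 were added to the 6 that the level rule took, after their values were seen. The genes, lists and rules were chosen with earlier results of these data known. Overlaps of exons come from GENCODE M21.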

Additional observations from a re-analysis of the deposited data

How the results depend on the processing

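Under 17 alternatives no gene of the set was called, and the smallest adjusted p of any was 0.203. Over all genes, DESeq2 called 2 and limma-trend on log2(FPKM + 1) without a filter called 4, against 0 in edgeR. Of 629 recomputed fold changes of the 37 genes, 615 moved by less than 1 SD between replicates and 14 by more. That SD includes the library left out, so leaving out 1 library could hardly move a value by 1 SD. For those settings the count is no measure of stability. Without RIP1i replicate 2, 0 values moved by that much, although 12 turned sign. Leaving out single libraries gave 2 to 11 genes at an unadjusted p under 0.05, 17 to 29 fitted higher and 7 to 16 without overlap. The median log2 fold change then ran from -0.0083 to 0.094. Of all genes then tested, 3.81% to 6.94% were at an unadjusted p under 0.05, and 46.1% to 51% were fitted higher. Without overlap were 9.99% to 12.1% of all genes above and 10.7% to 13.3% below. Without both RIP1i replicate 2 and DMSO replicate 2 there was 1 gene at an unadjusted p under 0.05, against 8.26% of all genes then tested. In that setting 18 of the 37 were fitted higher, against 48.2%. The median of the ER chaperone and degradation genes minus that of the amino acid genes was -0.13, from -0.26 to 0.023 when single libraries were left out, and turned positive without RIP1i replicate 2. Of the 37 fold changes 12 turned sign without RIP1i replicate 2, and at most 3 when any other single library was left out. The cause was not tested. Leaving out libraries for the further lists and for the SDs was added after the data were seen, and the tRNA synthetases fitted higher numbered 8 to 12 of 12.

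With the replicate block, 0 genes were called, 4 of the set had an unadjusted p under 0.05, 29 were fitted higher, and the median was 0.084. Shares over all genes are not given for this fit, so these counts stand without a background. The labels do not say if the replicate numbers pair the libraries. Deviations from the group mean correlated across genes at 0.0058, -0.53 and -0.48 between same-numbered libraries. RIP1i replicate 2 correlated at 0.60 with DMSO replicate 3. Such deviations sum to 0 within each group of 3 libraries, so these correlations cannot settle the pairing. Depth limits Chac1 most, and with 3 libraries a group the intervals of Chac1 and Asns reach past 2-fold.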
